A study of Mus musculus with 12 samples.

Results

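NOD.H2h4 minus NOD compared spleen T cells of mouse strains that share the NOD background and differ in the major histocompatibility complex (MHC). The means compared come from 4 of the 12 two-colour cDNA arrays of the series, 2 of NOD.H2h4 and 2 of NOD, chosen by their labels. The spread behind the p-values was estimated over all 12 arrays, which also hold 2 arrays each of B6.NODIdd1,5 spleen T cells, B6.NODIdd1,5 kidney cells, and spleen T cells of B6 recipients of NOD marrow (NODtoB6) and of NOD recipients of B6 marrow (B6toNOD). Of the 8708 genes on the arrays, the 8460 with a value on all 4 arrays were compared, together with 7110 probes that have no single gene symbol, which gives 15570 of 16411 features. On every one of these arrays the T cells of the strain were labelled with Cy5 and spleen T cells of B6 mice with Cy3, and no array with exchanged dyes is named. Age, sex and the purification of the T cells are not given, nor is it stated whether arrays 1 and 2 of a strain came from separate animals or whether all arrays had the same B6 RNA. The p-values therefore measure only the spread between arrays of a group, which may be technical.

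NOD mice carry the MHC haplotype H2g7 and develop autoimmune diabetes, in which CD4 and CD8 T cells attack the insulin-producing cells of the pancreas. NOD.H2h4 mice carry the haplotype H2h4 in its place, which brings the class II molecule I-Ak. They do not develop diabetes spontaneously but are prone to autoimmune thyroiditis. MHC class II molecules present peptides to CD4 T cells on B cells, macrophages and dendritic cells, and mouse T cells themselves make little of them. B6, the strain of the control channel, has the haplotype H2b. Polymorphic MHC genes of the experimental strains can therefore differ from the control in sequence as well as in amount of RNA, and which of them do was not examined.

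Values are log2 ratios of the strain to B6 after the median of each array was set to 0, and a difference is the mean of the 2 NOD.H2h4 arrays minus the mean of the 2 NOD arrays, given with its standard error (SE) from limma. Centring removed a median of -0.87 and -0.75 from the NOD.H2h4 arrays but only -0.0072 and -0.29 from the NOD arrays, so higher and lower are relative to the typical probe. The arrays gave values for 20202 to 20558 of 20736 probes. The spread of the ratios, as scaled median absolute deviation, was 0.720 and 0.721 on the NOD.H2h4 arrays and 0.297 and 0.380 on the NOD arrays. A log ratio holds no level of RNA, so the T cell label could not be checked against marker levels, and fewer cells of a type and less RNA per cell cannot be told apart.

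T cells of NOD.H2h4 differed from those of NOD in many transcripts, most of them by less than 2-fold. Of the 8460 named genes, 637 were higher (7.53%) and 602 lower (7.12%) in NOD.H2h4, together 14.6%, with a limma adjusted p under 0.05. Over all 15570 features 1965 were higher (12.6%) and 987 lower (6.34%), together 19.0%. The unnamed features leaned upwards, with 1328 of 7110 higher (18.7%) and 385 lower (5.41%), together 24.1%. The median difference was 0.13 over unnamed features and -0.10 over named genes. The median size of a called difference among named genes was 0.76, and 346 of the 1239 called genes differed by more than 1, which is more than 2-fold.

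How these counts split by direction depended on the scaling. Of the features called, 66.6% were higher after centring, 46.3% with all arrays scaled to the same spread, 52.1% after quantile normalisation and 1.54% with the values as deposited. Against B6, 34.4% of the named genes passed in NOD.H2h4 and 8.0% in NOD, in fits that share their arrays with the difference. As deposited, the median difference over all features was -0.66 on the log2 scale, and with that shift only 68 features were called higher and 4347 lower. Many genes described below as higher lose that call as deposited, and of the gene lists only the B cell markers and the heat shock proteins then hold a higher gene, 1 each. The gene lists described below were measured in part, from 3 of 16 NK cell markers and 6 of 19 genes of class II and its loading machinery to 75 of 77 ribosomal protein genes.

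**Figure D1:**
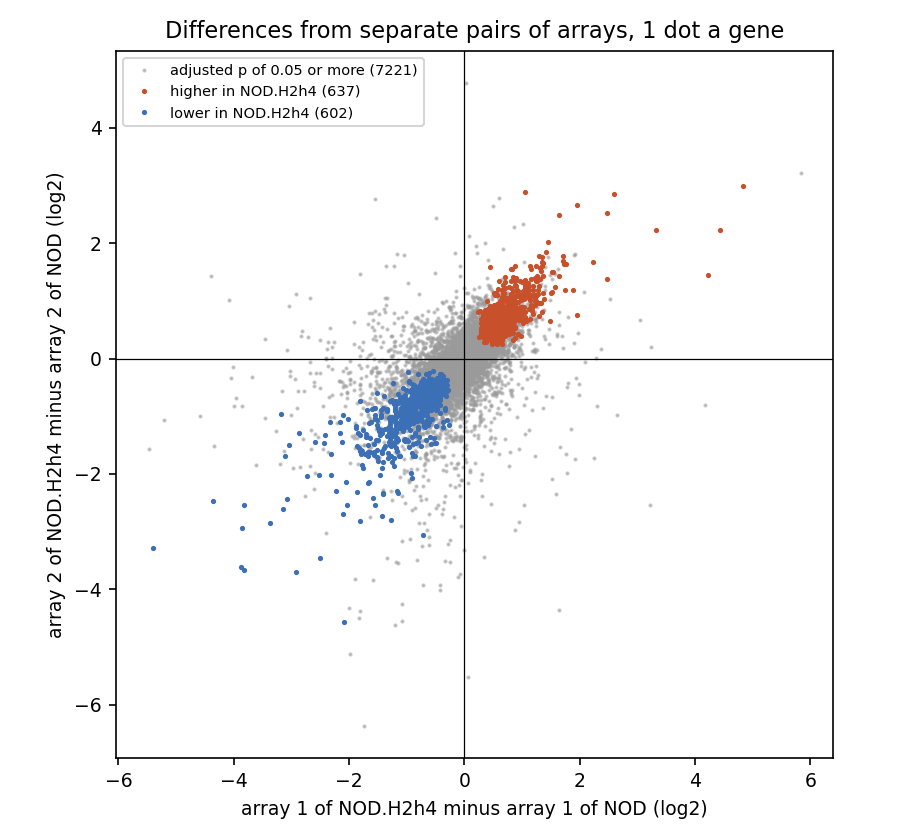
Difference of NOD.H2h4 minus NOD for each of the 8460 named genes from array 1 of both strains (horizontal, log2) and from array 2 of both strains (vertical, log2), with the 637 genes called higher in red and the 602 called lower in blue. The pairs share no array of these strains, and the differences had the same sign in 79.6% of the genes (Pearson's r = 0.60, Spearman's rho = 0.70 across genes, which are not independent replicates).

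The MHC class II chain genes H2-Aa and H2-Eb1 and the loading genes H2-DMa and Ctsl were lower in the strain with the H2h4 haplotype. The calls other than that of Ctsl lay near the threshold of the test and depended on single arrays. Of 6 tested genes of class II and its loading machinery 4 fell, 0 rose and 2 did not pass (66.7% called, beside 14.6% of all named genes). In a fit of only the 10 spleen arrays 1 fell. The list median was -0.73, against -0.10 over the named genes. H2-Aa encodes the alpha chain of the class II molecule I-A. It was at -0.09 and -0.67 on the NOD arrays and -1.79 and -1.56 on the NOD.H2h4 arrays, so it fell by 1.29 ± 0.34 (limma adjusted p = 0.043). H2-Eb1 encodes the beta chain of I-E. It was at 0.40 and 0.34 in NOD and -0.45 and -0.41 in NOD.H2h4, a fall by 0.80 ± 0.23 (limma adjusted p = 0.0499), and its 2 probes gave -1.20 and -0.39. For both genes the NOD.H2h4 arrays lay below both NOD arrays. The arrays of the strains did not overlap for 6128 of the named genes (72.4%).

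Both called partners in class II loading fell as well. H2-DMa, a chain of the molecule that edits the peptides on class II, was at 0.00 and -0.12 in NOD and -0.95 and -0.51 in NOD.H2h4 and fell by 0.67 ± 0.18 (limma adjusted p = 0.042). Ctsl, the protease cathepsin L, which cuts the invariant chain, was at 0.19 and 0.03 in NOD and -1.32 and -1.03 in NOD.H2h4. It fell by 1.29 ± 0.18 (limma adjusted p = 0.0043), with both arrays of NOD.H2h4 well below both of NOD. Ifi30, a lysosomal thiol reductase, at 0.44 ± 0.16 (adjusted p = 0.11), and the protease Lgmn at 0.03 ± 0.098 (adjusted p = 0.86) did not pass, and as deposited both differences were negative (-0.22 and -0.62).

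Of these 4 calls only that of Ctsl held in every fit that left out 1 of the 4 arrays (adjusted p 0.022 to 0.033). H2-Aa (0.077 to 0.20) and H2-Eb1 (0.16 to 0.18) did not pass in any of them, and H2-DMa passed only without NOD.H2h4 replicate 2 (-0.89, adjusted p = 0.046), being at -0.45 without replicate 1 of that strain (adjusted p = 0.21). With the arrays scaled to the same spread H2-Aa was at -0.75 (adjusted p = 0.28) and H2-DMa at -0.50 (adjusted p = 0.10). This leaves 2 genes of the list lower, the protease gene Ctsl and the class II chain gene H2-Eb1. Ifi30 passed as higher without NOD replicate 1 (0.68, adjusted p = 0.025).

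The genes of cells that make class II are given beside these values. Of 7 B cell markers tested 1 rose and 1 fell (28.6%, beside 14.6% of all named genes), with a median of -0.38. The median over the list was -0.10 and 0.14 on the NOD arrays and -0.70 and -0.63 on the NOD.H2h4 arrays. Of 14 monocyte, macrophage and dendritic cell markers 1 rose and 3 fell (28.6%), with a median of -0.36. Their list medians were 0.18 and 0.10 on the NOD arrays and -0.24 and -0.32 on the NOD.H2h4 arrays. Cd79b of the B cell receptor was at -0.38, Ighm, its heavy chain, at -0.23 and the dendritic cell integrin Itgax at -1.06, none past the threshold (limma adjusted p = 0.80, 0.65 and 0.31). H2-DMa, but not H2-Aa, H2-Eb1 or Ctsl, ordered the spleen T cell groups at both ends as globin genes of red cells did (below). The mean of 3 globin genes was 2.38 and 2.39 on the NOD arrays and 1.13 and 1.13 on the NOD.H2h4 arrays. The part of such cells in the class II values was not tested.

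By their label, B6.NODIdd1,5 mice carry NOD DNA at Idd1, which is the MHC region, and at Idd5, on the B6 background. On the other arrays of the series H2-Aa was at 0.00 and 0.98 in T cells of these mice. It was at 1.62 and 1.68 in T cells of B6 recipients of NOD marrow and at -3.95, on 1 array only, in those of NOD recipients of B6 marrow. H2-Eb1 was at -0.29 and -0.10, at 0.65 and 0.57 and at 1.11 and 0.31 in these groups, in the same order. Ctsl was at -0.38 and -0.59, -0.24 and -0.04 and 0.58 and 0.17, and H2-DMa at -1.26 and -0.88, 0.03 and -0.01 and -0.68 and -0.58. The NOD.H2h4 arrays were the lowest spleen T cell arrays for H2-Eb1 and Ctsl, while 1 array of NOD recipients of B6 marrow was lower for H2-Aa. For H2-DMa the mean of B6.NODIdd1,5 T cells was lower. No dye is named for arrays of marrow recipients, so their direction is assumed to be that of the strain arrays.

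The promoters of H2-Aa and H2-Eb1 are shown for an element that both hold. Class II promoters hold a Y box, which binds the factor NF-Y and stands beside the X box that recruits the class II transactivator through RFX proteins. In RefSeq (GRCm38.p6, the B6 sequence) the 250 bases before the start of H2-Aa (chr17:34287824-34288073, minus strand) and of H2-Eb1 (chr17:34305617-34305866, plus strand) each held the Y box core CTGATTGG, searched on both strands and printed in capitals. Of the 6 tested class II list genes these 2 held it, and H2-DMa and Ctsl, which also fell, did not, and of 32851 mouse promoter windows of that length 3.83%. A match describes the reference letters only, and the NOD and NOD.H2h4 alleles were not read here.
H2-Aa: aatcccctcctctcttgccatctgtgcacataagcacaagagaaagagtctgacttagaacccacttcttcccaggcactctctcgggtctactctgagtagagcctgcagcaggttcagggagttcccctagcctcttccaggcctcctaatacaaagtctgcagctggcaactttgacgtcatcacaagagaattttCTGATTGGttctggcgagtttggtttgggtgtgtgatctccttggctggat
H2-Eb1: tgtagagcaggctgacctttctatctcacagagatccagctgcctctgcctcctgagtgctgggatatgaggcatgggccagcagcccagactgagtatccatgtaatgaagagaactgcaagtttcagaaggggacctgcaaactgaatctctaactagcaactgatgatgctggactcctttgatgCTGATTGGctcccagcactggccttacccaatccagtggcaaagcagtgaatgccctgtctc

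No gene of MHC class I or its loading machinery passed among 10 tested in the main fit, with a list median of -0.32. As deposited, 0 were higher and 4 lower, and after quantile normalisation 1 was higher. In a fit of only the 4 arrays 0 were higher and 3 lower: Canx (limma adjusted p = 0.023), Psmb8 (0.030) and Cd1d1 (0.049). With a running median along the probe order 2 were higher and 0 lower. Psmb9, a subunit of the immunoproteasome that lies in the class II region, had the largest difference of the list. It was at -0.12 and -0.31 on the NOD arrays and -4.71 and -1.30 on the NOD.H2h4 arrays, a difference of -2.79 ± 0.91 (limma adjusted p = 0.075). The value rested on NOD.H2h4 replicate 1: without it the difference was -1.09 (adjusted p = 0.086), and without replicate 2 it was -4.49 (adjusted p = 0.0054). The neighbouring subunit Psmb8 was at -0.94 ± 0.78 (adjusted p = 0.48).

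B2m, the invariant light chain of class I, was at -0.15 and -0.60 in NOD and 0.26 and 0.44 in NOD.H2h4, a difference of 0.73 ± 0.22 (limma adjusted p = 0.058). The class Ib heavy chain gene H2-Q1 was at -0.65 ± 0.43, the peptide transporter Tap2 at -0.17 ± 0.097 and tapasin (Tapbp), which bridges transporter and class I, at 0.27 ± 0.36, negative as deposited (-0.38). The chaperones Calr, Canx and Pdia3 were at 0.33 ± 0.098, -0.73 ± 0.41 and 0.05 ± 0.11, and Calr and Pdia3 were negative as deposited (-0.33 and -0.61). Cd1d1, which presents lipids to NKT cells, was at -0.46 ± 0.47. The adjusted p of these genes other than B2m was 0.058 to 0.80.

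**Figure D2:**
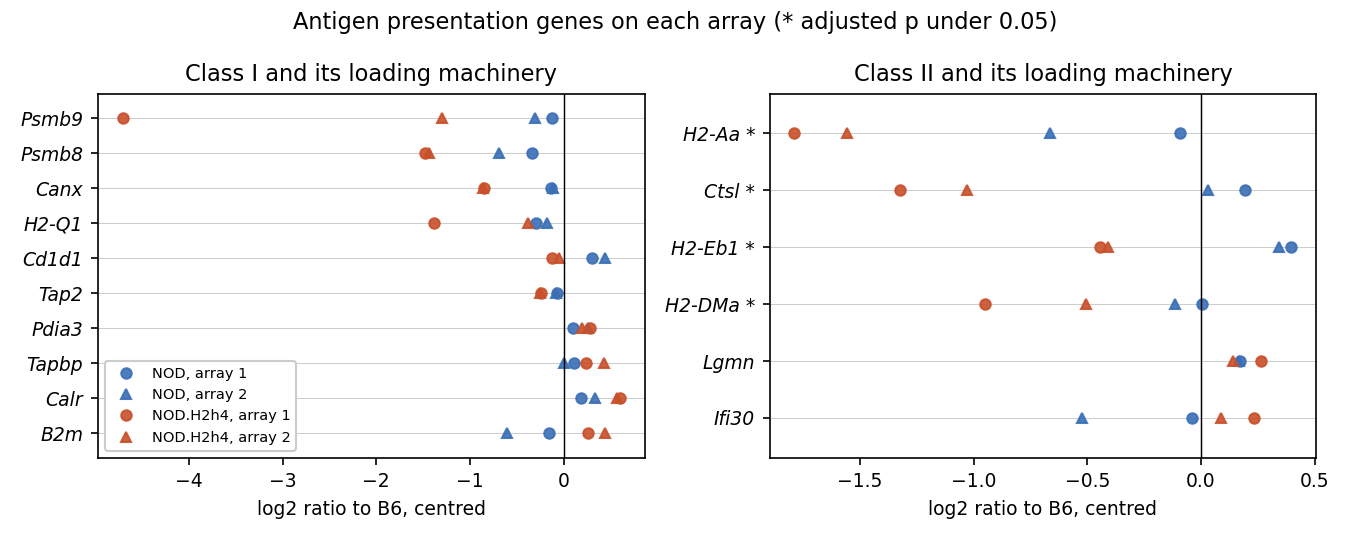
Centred log2 ratio to B6 (horizontal) of each tested gene of MHC class I (left) and class II (right) on the 2 NOD arrays (blue) and the 2 NOD.H2h4 arrays (red), with an asterisk for a limma adjusted p under 0.05. H2-Aa, Ctsl, H2-Eb1 and H2-DMa lie lower on both NOD.H2h4 arrays, and Psmb9 is far lower on array 1 of NOD.H2h4 only.

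Of 45 tested MHC region genes outside the antigen presentation lists 7 rose and 5 fell (26.7%, beside 14.6% of all named genes), with a median of -0.07. Scaled to the same spread, 3 were higher and 4 lower, and as deposited 0 and 18. Agpat1, which makes phosphatidic acid, was at 0.10 and 0.28 in NOD and 1.26 and 1.20 in NOD.H2h4 and rose by 1.04 ± 0.12 (limma adjusted p = 0.0027). Clic1, a chloride channel protein, was at 0.24 and 0.27 in NOD and -0.68 and -0.70 in NOD.H2h4 and fell by 0.94 ± 0.10 (limma adjusted p = 0.0022). Brd2, a reader of acetylated histones that lies beside the H2-DM genes, was at -0.21 and -0.21 in NOD and -1.06 and -1.22 in NOD.H2h4 and fell by 0.93 ± 0.12 (limma adjusted p = 0.0039). For these 3 genes both arrays of a strain agreed closely and the calls held without each array in turn (adjusted p at most 0.032). Agpat1 was, on arrays scaled to the same spread, at 0.69 and Brd2 at -0.55, still called.

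Rxrb, the retinoid X receptor beta, fell by 0.91 ± 0.20 (limma adjusted p = 0.018), a call that ended in each fit without 1 array (0.063 to 0.10). The other genes that rose were Lsm2 of the spliceosome (0.88), the DNA damage mediator Mdc1 (0.72), the RNA helicase Dhx16 (0.69), the tubulin acetyltransferase Atat1 (0.53), the ubiquitin ligase Rnf5 (0.50) and Rgl2 (0.34). The other genes that fell were the sialidase Neu1 (-0.70) and the lipase Abhd16a (-0.62). These genes were listed as past the threshold after their values were seen.

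Taken by chromosomal order in RefSeq, the stretch of chromosome 17 from Kifc1 to Gabbr1, which holds the MHC, had 61 tested genes, of which 8 rose and 8 fell (26.2%). Of the 100 tested genes before it 7 rose and 5 fell (12%), and of the 100 after it 8 rose and 4 fell (12%). Over all named genes 14.6% passed, and on chromosome 17 as a whole 68 of 386 (17.6%). As deposited 0 genes of the stretch were higher and 25 lower, beside 0 and 30 before it and 1 and 36 after it. In a fit of only the 10 spleen arrays 5 of the stretch were higher and 4 lower, beside 4 and 2 before it and 6 and 4 after it. No test of a difference between the stretch and its flanks was made, the NOD.H2h4 interval is not mapped in the sources used here, and polymorphic probes can bind alleles unequally.

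**Figure D3:**
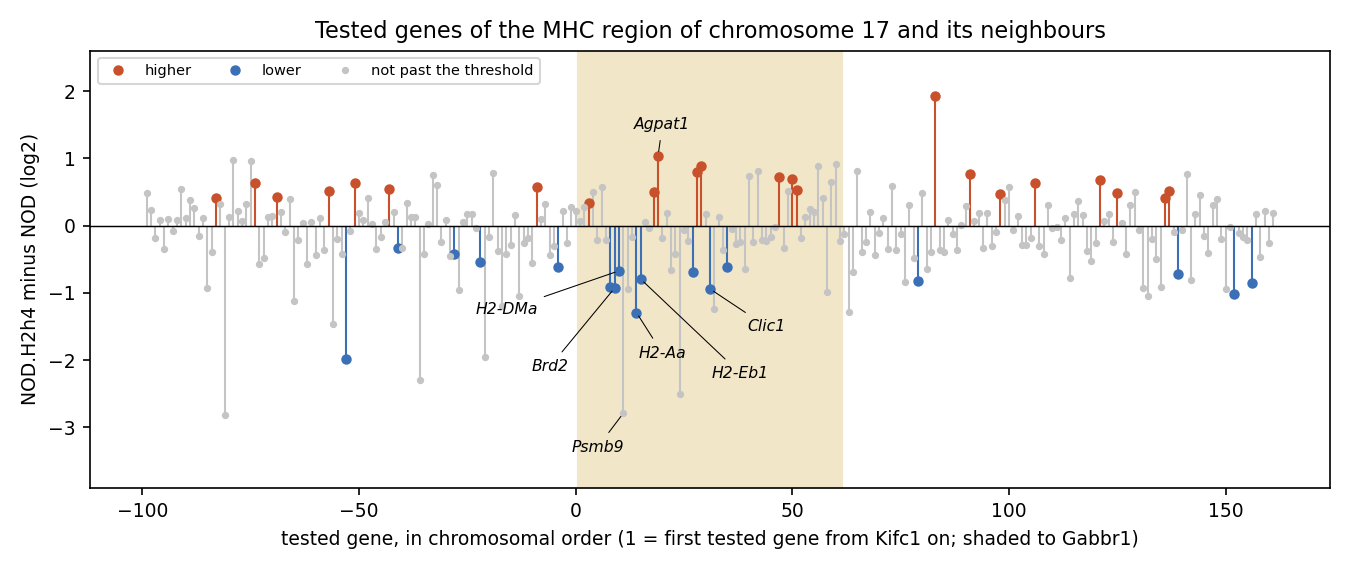
NOD.H2h4 minus NOD (vertical, log2) of tested genes in chromosomal order (horizontal), with the 61 genes from Kifc1 to Gabbr1 shaded and 100 genes to each side, called genes in red (higher) or blue (lower) and other genes in grey. The shaded stretch holds 16 called genes, 8 in each direction, and each flank of 100 genes holds 12.

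Of 12 tested genes of the T cell receptor complex and its signalling 0 rose, 3 fell and 9 did not pass, beside 14.6% of all named genes that passed, with a median of -0.44. None of the 12 passed in a fit of only the 10 spleen arrays, with the replicate block or with centring over probes with a gene symbol, a setting chosen after seeing the data. Lcp2, the adaptor SLP-76, was at 0.34 and 0.19 in NOD and -0.59 and -0.64 in NOD.H2h4 and fell by 0.88 ± 0.25 (limma adjusted p = 0.0498). Sh2d1a, the adaptor SAP of SLAM receptors, was at -0.32 and -0.50 in NOD and -0.93 and -1.54 in NOD.H2h4 and fell by 0.82 ± 0.23 (limma adjusted p = 0.046). Ptpn6, the inhibitory phosphatase SHP-1, fell by 0.43 ± 0.12 (limma adjusted p = 0.040). The arrays of the strains did not overlap for these 3 genes (nor for 72.4% of named genes), and the calls of Lcp2 (0.14 to 0.20) and Ptpn6 (0.070 to 0.19) ended in every fit without 1 array, and Sh2d1a passed only without NOD.H2h4 replicate 1 (-1.13, adjusted p = 0.038) and was at -0.52 without replicate 2 of that strain (adjusted p = 0.22). Cd4 was at -0.47 (adjusted p = 0.66) and the zeta chain Cd247 at 0.26 (adjusted p = 0.77).

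Among 13 costimulatory and inhibitory receptors and their ligands 2 fell and 0 rose, with a median of -0.02. The share called, 15.4%, was near the 14.6% of all named genes. Cd28, the main costimulatory receptor of naive T cells, was at 0.76 and 0.42 on the NOD arrays and -0.53 and -0.63 on the NOD.H2h4 arrays. It was thus above B6 in NOD and below it in NOD.H2h4 and fell by 1.17 ± 0.14, 2.24-fold (limma adjusted p = 0.0028, 0.0099 to 0.026 without each array in turn). Cd200, an inhibitory surface glycoprotein, was at 3.57 and 3.73 in NOD and 2.05 and 2.03 in NOD.H2h4 and fell by 1.61 ± 0.093 (limma adjusted p = 0.00067). It was far above B6 on all 4 arrays. Icos, a costimulatory receptor of activated T cells, was at -0.47 and -0.17 in NOD and -0.30 and -1.34 in NOD.H2h4, which overlap, with a difference of -0.50 ± 0.87 (adjusted p = 0.76).

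Genes of naive T cell homing and quiescence had 2 higher and 2 lower of 16 tested (25.0%, beside 14.6% of all named genes). Their median was -0.00, and as deposited 0 were higher and 5 lower. Btg1, an antiproliferative gene of resting T cells, was at 0.50 and 0.32 in NOD and -0.94 and -0.96 in NOD.H2h4 and fell by 1.36 ± 0.11 (limma adjusted p = 0.0010, 0.0072 to 0.013 without each array in turn). Foxp1, which keeps naive T cells quiescent, fell by 0.65 ± 0.12 (limma adjusted p = 0.010) and passed only without NOD replicate 2 (0.037). The homing receptor Ccr7 was at 0.45 and 0.22 in NOD and 0.84 and 0.79 in NOD.H2h4, higher by 0.48 ± 0.13 (limma adjusted p = 0.0477) but at -0.18 as deposited. Klf2, the factor that drives exit from lymphoid organs, was higher by 0.47 ± 0.092 (limma adjusted p = 0.014) but at -0.19 as deposited. Without 1 array Ccr7 passed in no fit (0.063 to 0.21) and Klf2 only without NOD replicate 1 (0.042).

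Of 14 effector, cytokine and lineage genes 1 rose and 2 fell (21.4%, beside 14.6% of all named genes). The median was -0.42, and -0.17 with the arrays scaled to the same spread. Tgfbr2, the receptor for TGF-beta, was at 0.66 and 0.59 in NOD and 0.03 and 0.05 in NOD.H2h4 and fell by 0.59 ± 0.10 (limma adjusted p = 0.0093, at most 0.058 without 1 array, past only without a NOD array). Ifngr2, a chain of the interferon gamma receptor, fell by 0.63 ± 0.15 (limma adjusted p = 0.026), but its 2 probes gave -1.36 and 0.10 and no fit without 1 array passed (0.10 to 0.12). Il4ra, the interleukin 4 receptor, was higher by 0.39 ± 0.11 (limma adjusted p = 0.042), at -0.27 as deposited and -0.06 with the arrays scaled to the same spread, and passed in no fit without 1 array (0.099 to 0.19).

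The genes with the largest rise were mostly below B6 in NOD and near or above B6 in NOD.H2h4. Wnt2, a secreted signalling protein, was at -3.98 and -2.09 on the NOD arrays and 0.84 and 0.90 on the NOD.H2h4 arrays, a rise by 3.91 ± 0.54 (limma adjusted p = 0.0061). Serpinb11, a serpin, was at -3.85 and -1.66 in NOD and 0.58 and 0.57 in NOD.H2h4, a rise by 3.33 ± 0.58 (limma adjusted p = 0.0093). In both genes the NOD arrays were low but far apart, and the NOD.H2h4 arrays agreed. Hsph1, a large heat shock protein that recharges HSP70, was at -2.24 and -2.56 in NOD and 0.36 and 0.30 in NOD.H2h4. It rose by 2.73 ± 0.21, 6.64-fold (limma adjusted p = 0.00087, 0.0061 to 0.011 without each array in turn), and its 2 probes gave 2.22 and 3.24.

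Atic, an enzyme of purine synthesis, was at -4.79 and -2.51 in NOD and -0.57 and -1.07 in NOD.H2h4 and rose by 2.83 ± 0.73 (limma adjusted p = 0.042), a call that ended without NOD replicate 1 (1.69, adjusted p = 0.099) and without either NOD.H2h4 array (0.12 and 0.18). Fgb, a chain of fibrinogen, was at -0.67 and -1.44 in NOD and 0.97 and 1.06 in NOD.H2h4 and rose by 2.07 ± 0.23 (limma adjusted p = 0.0025). Here the strains lay on opposite sides of B6. Kmo, which degrades kynurenine, was at 0.01 and 0.01 in NOD and 1.72 and 1.70 in NOD.H2h4 and rose by 1.70 ± 0.18 (limma adjusted p = 0.0021), and Rfx7, a transcription factor, at 0.06 and 0.03 in NOD and 2.29 and 1.71 in NOD.H2h4, rose by 1.95 ± 0.28 (limma adjusted p = 0.0068). These genes were at B6 level in NOD and above it in NOD.H2h4.

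The other genes among the 15 with the largest rise were Tmprss2, Pex13, Cxcl14, 2310030G06Rik, Slc22a7, Grtp1, 3110040N11Rik and Fam151a, with differences of 1.70 to 2.78. Of these Grtp1 alone (1.75 ± 0.15) held without each array in turn. The rises with the largest moderated t, beside Hsph1, Grtp1 and others above, included the unannotated 2510002D24Rik (1.30 ± 0.092), the membrane protein Emp1 (1.33 ± 0.11), Ubap2 (1.54 ± 0.13), Tprkb (1.12 ± 0.092), the GABA transporter Slc6a13 (1.51 ± 0.14), the transcription factor Wt1 (1.14 ± 0.10) and the clathrin adaptor Ap2b1 (1.27 ± 0.12), each with a limma adjusted p of at most 0.0021. The call of Serpinb11 ended without either NOD.H2h4 array (0.054 and 0.054). With the arrays scaled to the same spread the risers that started low rose further, Wnt2 by 6.21 and Hsph1 by 4.43, while Wt1 was at 0.55 and no longer called. Spot intensities were not analysed here, so whether the largest ratios came from dim spots was not tested.

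The genes with the largest fall were mostly near B6 in NOD and far below it in NOD.H2h4. Ints8, a subunit of the Integrator complex, was at -0.53 and -1.07 in NOD and -5.93 and -4.36 in NOD.H2h4 and fell by 4.34 ± 0.97 (limma adjusted p = 0.021), the largest fall of any named gene called, but passed in no fit without 1 array (0.052 to 0.12). Kif21b, a kinesin of neurons and lymphocytes, was at 0.77 and 1.02 in NOD and -3.06 and -2.64 in NOD.H2h4 and fell by 3.75 ± 0.53 (limma adjusted p = 0.010, 0.049 to 0.062 without 1 array, past only without NOD replicate 1). Sepsecs, which completes selenocysteinyl-tRNA, was at -0.24 and -0.51 in NOD and -3.61 and -3.36 in NOD.H2h4 and fell by 3.11 ± 0.32 (limma adjusted p = 0.0021). In all 3 genes both NOD.H2h4 arrays lay far below both NOD arrays.

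Gcsh, a component of the glycine cleavage system, was at 0.23 and 0.17 in NOD and -2.91 and -2.43 in NOD.H2h4 and fell by 2.87 ± 0.20 (limma adjusted p = 0.0013), and Aspg, an asparaginase, fell by 3.39 ± 0.35 (limma adjusted p = 0.0026). Both held without each array in turn. Josd1, a deubiquitinase, was at 4.01 and 2.10 in NOD and -0.35 and -0.38 in NOD.H2h4 and fell by 3.42 ± 0.54 (limma adjusted p = 0.0069). It lay far above B6 in NOD and near B6 in NOD.H2h4. Anxa1, the anti-inflammatory phospholipid binder annexin A1, was at 1.17 and 1.33 in NOD and -1.57 and -0.71 in NOD.H2h4, on opposite sides of B6, and fell by 2.39 ± 0.25 (limma adjusted p = 0.0021, 0.0034 to 0.017 without each array in turn).

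Others among the 15 largest falls were Slco1b2, Taf3, 1300017J02Rik, Atp8b2, Cers2, Adprm and Pts, at -3.33 to -2.40, none of which held in every fit without 1 array. With the arrays scaled to the same spread Ints8 was at -2.81 and no longer called, and Josd1 at -5.84. Falls with the most negative moderated t included those of Mamld1, at 0.98 and 1.21 in NOD and -1.06 and -1.33 in NOD.H2h4 (-2.29 ± 0.13), the lysosomal sphingolipid activator Psap (-1.70 ± 0.12), Tspyl2 (-1.52 ± 0.11) and the splicing factor Srsf5 (-1.37 ± 0.10), each with a limma adjusted p of at most 0.00087.

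**Figure D4:**
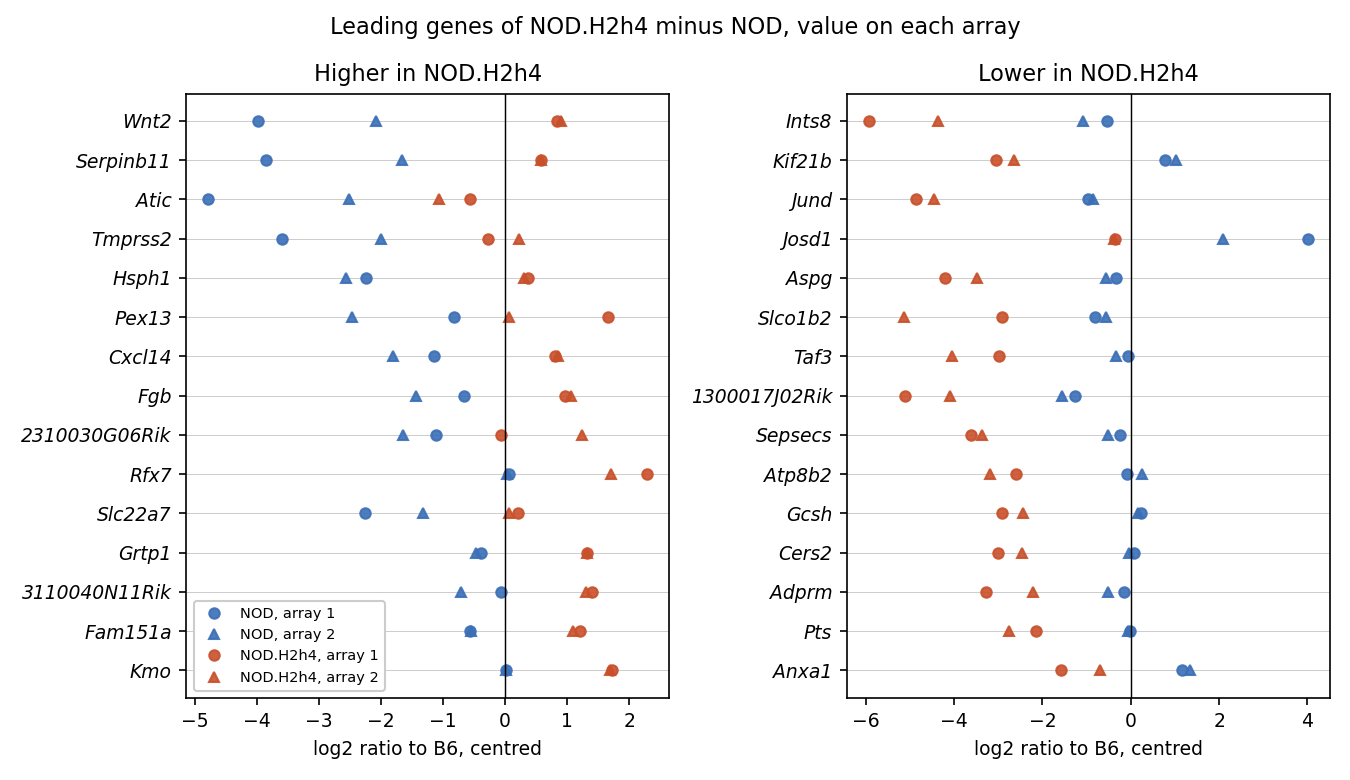
Centred log2 ratio to B6 (horizontal) of the 15 named genes with the largest rise (left) and the 15 with the largest fall (right) on the 2 NOD arrays (blue) and the 2 NOD.H2h4 arrays (red). Most risers have low NOD values, down to -4.79 in Atic, and most fallers have low NOD.H2h4 values, down to -5.93 in Ints8.

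Of 27 tested interferon-induced genes 1 rose, 3 fell and 23 did not pass, a share called near the 14.6% of all named genes. Scaled to the same spread, 2 were higher and 2 lower, and as deposited 0 and 13. The list had a median difference of -0.28 and medians by array of 0.11 and -0.06 on the NOD arrays and -0.35 and -0.12 on the NOD.H2h4 arrays. Gbp2, a guanylate-binding GTPase of cell-autonomous immunity, was at 0.22 and 0.32 in NOD and -1.64 and -2.00 in NOD.H2h4. It fell by 2.09 ± 0.19, 4.25-fold (limma adjusted p = 0.0021), and the difference was -2.27 to -1.91 without each array in turn. In NOD it was not past the threshold against B6 (limma adjusted p = 0.30), and in NOD.H2h4 it lay far below B6. Its promoter in RefSeq (GRCm38.p6, chr3:142620413-142620662, plus strand) is shown for the interferon response element (GAAA, any 2 bases, GAAA), which lies there on the opposite strand and is in capitals. The element was found on either strand in the 250 bases before the start of 8 of 24 list genes with a promoter in the table, and in 2.98% of 32851 such windows. Of the 4 list genes past the threshold Gbp2 alone held it.
Gbp2: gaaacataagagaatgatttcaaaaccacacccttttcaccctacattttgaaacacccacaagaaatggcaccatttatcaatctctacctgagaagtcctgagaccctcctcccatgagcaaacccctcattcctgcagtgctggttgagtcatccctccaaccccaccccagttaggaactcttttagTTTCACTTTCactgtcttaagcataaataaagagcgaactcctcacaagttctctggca

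Ifi35 fell by 0.78 ± 0.16 (limma adjusted p = 0.020) and passed only without NOD.H2h4 replicate 1 (0.028). Psme1, an activator subunit of the proteasome, was at -0.09 and -0.30 in NOD and -0.87 and -0.89 in NOD.H2h4 and fell by 0.68 ± 0.14 (limma adjusted p = 0.014), past only without NOD replicate 2 (0.038). Adar, which edits adenosine in double-stranded RNA, was higher by 0.64 ± 0.18 (limma adjusted p = 0.043) but at -0.02 as deposited, and passed in no fit without 1 array (0.11 to 0.18). The transcription factor Irf1 was at -1.11 (adjusted p = 0.074).

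Immediate-early genes and feedback inhibitors of NF-kappaB had 4 higher and 2 lower of 22 (27.3%, beside 14.6% of all named genes). Their median was 0.04, and as deposited 0 were higher and 5 lower. Nfkbia, the inhibitor that holds NF-kappaB in the cytoplasm, was at 0.40 and 0.38 in NOD and 1.52 and 1.58 in NOD.H2h4 and rose by 1.16 ± 0.11 (limma adjusted p = 0.0016). Fos, a subunit of AP-1, was at -0.95 and -0.86 in NOD and 0.27 and 0.14 in NOD.H2h4 and rose by 1.11 ± 0.10 (limma adjusted p = 0.0016). With the arrays scaled to the same spread Nfkbia was at 0.56 and Fos at 1.76, still called. Without each array in turn the rise was 1.13 to 1.18 for Nfkbia and 1.04 to 1.18 for Fos. Fos lay below B6 in NOD and was not past the threshold against B6 in NOD.H2h4 (limma adjusted p = 0.060). Jund, another AP-1 subunit, was at -0.97 and -0.85 in NOD and -4.85 and -4.46 in NOD.H2h4 and fell by 3.75 ± 0.56, 13.4-fold (limma adjusted p = 0.0079), past in all fits without 1 array but the one without NOD.H2h4 replicate 1 (0.053). Zfp36l1 (0.54) and Dusp1 (0.52) also rose, and Ier5 fell by 0.93 ± 0.20 although its 2 probes gave -2.30 and 0.45, and it passed in no fit without 1 array (0.059 to 0.098).

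Heat shock proteins and chaperones had 6 higher and 5 lower of 49 (22.4%, beside 14.6% of all named genes). Their median was -0.03, and 0.23 with the arrays scaled to the same spread. As deposited 1 was higher and 17 lower. The genes that rose beside Hsph1 were Dnajc5 (0.77), Stip1 (0.69), which links HSP70 and HSP90, Chordc1 (0.61), Dnaja3 (0.56) and Fkbp4 (0.54). The genes that fell were Dnajb11 of the endoplasmic reticulum (-1.01), Dnaja2 (-0.99), Dnajc7 (-0.82), Dnajc8 (-0.60) and the mitochondrial Hspa9 (-0.49). Dnaja2 and Dnajc7 passed in no fit without 1 array (0.10 to 0.22 and 0.067 to 0.081), and the 2 probes of Dnajc7 gave -2.08 and 0.45. The cytosolic HSP70 gene Hspa8 was at 0.23 and Hsp90aa1 at 0.51, neither past (limma adjusted p = 0.11 and 0.078).

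Globins and haem synthesis genes were among the erythroid markers that fell. Of 16 erythroid markers tested 2 rose, 5 fell and 9 did not pass (0 higher and 9 lower as deposited), beside 14.6% of all named genes that passed. The median difference was -0.72, with 12 of 16 members below 0. Hbb-b1, the adult beta globin, was at 3.33 and 3.29 in NOD and 1.84 and 1.88 in NOD.H2h4 and fell by 1.45 ± 0.18 (limma adjusted p = 0.0030). Alas2, which starts haem synthesis in red cells, was at 2.21 and 1.65 in NOD and 0.66 and 0.79 in NOD.H2h4 and fell by 1.20 ± 0.23 (limma adjusted p = 0.015, past without 1 array only where NOD replicate 2 was left out, 0.023). After centring, which removed a median of -0.87 and -0.75 from the NOD.H2h4 arrays, both genes were above B6 in both strains, less so in NOD.H2h4. Hbb-y fell by 1.28 ± 0.14 and Hba-x by 1.03, probes of embryonic globins that can bind adult globin RNA, and Fech, which completes haem, by 1.59 ± 0.39 (limma adjusted p = 0.029, 0.11 to 0.12 without 1 array). Gata1, the erythroid transcription factor (0.53), and Cpox of haem synthesis (0.60) were higher. The median of the markers' ratios on each array was 0.21 and 0.29 on the NOD arrays and 0.33 and 0.17 on the NOD.H2h4 arrays, which differs from the median of their differences and is not a measure of their change.

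The mean over the 3 globin genes (Hbb-b1, Hbb-y and Hba-x) was 2.38 and 2.39 on the NOD arrays and 1.13 and 1.13 on the NOD.H2h4 arrays. Several genes with the most negative moderated t were likewise far above B6 in NOD and less so in NOD.H2h4: Cd200 (above), Nr2f2, a nuclear receptor, at 3.52 and 3.51 in NOD and 1.85 and 1.89 in NOD.H2h4, and Ptpn13, a phosphatase, at 2.62 and 2.71 in NOD and 1.19 and 1.07 in NOD.H2h4. Atp6v0d1 of the proton pump was at 2.99 and 3.06 in NOD and 1.43 and 1.40 in NOD.H2h4, and Ciao2b of iron-sulphur assembly at 2.92 and 2.84 in NOD and 1.28 and 1.22 in NOD.H2h4. These genes fell by 1.53 to 1.65. With the arrays scaled to the same spread Hbb-b1 was at -4.29, Cd200 at -4.71 and Nr2f2 at -4.64. Over the other spleen T cell groups the globin mean was -0.62 and -0.70 in B6.NODIdd1,5, 2.68 and 2.72 in NODtoB6 and 1.16 and 0.95 in B6toNOD. Cd28 was at -1.45 and -1.29, 0.56 and 0.65 and 0.09 and 0.24 in these groups, so that Cd28, like H2-DMa (above), was by group mean highest in NOD and NODtoB6, where the globins were high, and lowest in B6.NODIdd1,5 T cells, where the globins were lowest. Between these ends, NOD.H2h4 and B6toNOD had similar globin means. Cd28 was there at -0.53 and -0.63 in NOD.H2h4 but at 0.09 and 0.24 in B6toNOD. H2-DMa was at -0.95 and -0.51 in NOD.H2h4 and at -0.68 and -0.58 in B6toNOD. Other called genes of the class II list were ordered otherwise: H2-Eb1 and Ctsl were by group mean highest in B6toNOD, and H2-Aa was lowest there, on 1 array. In kidney cells of B6.NODIdd1,5 mice the globin mean was 0.22 and -0.01. Cd28 was there at -1.11 and -1.24, and H2-DMa at -1.03 and -0.84. By their label, B6.NODIdd1,5 mice carry NOD DNA at Idd1, the MHC region, which holds H2-DMa, and at Idd5. The part of red cell RNA and of the Idd1 and Idd5 genotypes in the values of these genes was not tested.

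Among B cell markers Btk, a kinase of the B cell receptor pathway, was at 0.39 and 0.81 in NOD and 1.92 and 2.31 in NOD.H2h4 and rose by 1.52 ± 0.19 (limma adjusted p = 0.0050), and Cd24a, also made by red cell precursors, was at 0.60 and 0.47 in NOD and -0.86 and -0.85 in NOD.H2h4 and fell by 1.39 ± 0.14 (limma adjusted p = 0.0018). Lyz2, the lysozyme of macrophages and neutrophils, was at 0.74 and 0.45 in NOD and -0.55 and -0.69 in NOD.H2h4 and fell by 1.22 ± 0.13 (limma adjusted p = 0.0021). These 3 calls held without each array in turn, but with the arrays scaled to the same spread Btk was at 0.71 and not called. The Fc receptor Fcgr3 fell by 0.92 ± 0.19 and Alox5ap, which feeds leukotriene synthesis, by 0.49 ± 0.10, while Fcgr1 was higher by 0.37 ± 0.11 (limma adjusted p = 0.0496) but at -0.29 as deposited. Of these Alox5ap alone passed in a fit without 1 array, that without NOD replicate 2 (0.0499).

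Of 6 neutrophil markers 1 rose, the growth factor receptor Csf3r by 0.45 ± 0.093 (limma adjusted p = 0.017), which was at -0.21 as deposited and -0.02 with the arrays scaled to the same spread, and past without 1 array only where NOD replicate 2 was left out (0.045). Of 3 NK cell markers Klrk1 rose by 0.79 ± 0.12 (limma adjusted p = 0.0081, but 0.057 without NOD.H2h4 replicate 1), and Ncr1 fell by 0.83 ± 0.16 (limma adjusted p = 0.014, past without 1 array only where NOD replicate 1 was left out, 0.037), beside Fcgr3, which is shared with macrophages. Of 4 platelet markers Cd9 fell by 0.91 ± 0.093 (limma adjusted p = 0.0021), and of 3 plasma cell markers none passed (Jchain -0.89 ± 0.28, adjusted p = 0.066, and Xbp1 -0.46 ± 0.44, adjusted p = 0.55). The sex-linked genes Xist (1.06 ± 0.46, adjusted p = 0.16) and Eif2s3y (0.48 ± 0.14, adjusted p = 0.0515, -0.18 as deposited) did not pass. Of these lists 16.7% of the neutrophil, 25.0% of the platelet and all of the NK markers tested were called, beside 14.6% of all named genes. The part of these cell types in other genes was not tested.

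Replication and mitosis genes had 5 higher and 7 lower of 70 (17.1%, near the 14.6% of all named genes). Of the 70, 49 had a negative difference (median -0.33). The median was -0.11 with the arrays scaled to the same spread and -0.094 after quantile normalisation, and as deposited 0 were higher and 28 lower. Mcm3, a subunit of the replicative helicase, was at -0.03 and 0.05 in NOD and -1.82 and -1.60 in NOD.H2h4 and fell by 1.72 ± 0.27 (limma adjusted p = 0.0088, 0.041 to 0.057 without 1 array, past only without NOD replicate 1 or NOD.H2h4 replicate 2). Topoisomerase Top2a (-0.99 ± 0.25), survivin Birc5 (-0.95 ± 0.25) and the centromeric histone Cenpa (-0.92 ± 0.23) fell as well but passed in no fit without 1 array (0.061 to 0.19). Other falls were Rfc2 (-0.77), Cks2 (-0.66) and Kif2c (-0.64). The rises were Cdc25c (0.74), Prc1 (0.62), Ube2c (0.61), Tpx2 (0.51) and Rfc1 (0.37), and Mki67 was at 0.86 (adjusted p = 0.42). The share of apoptosis regulators called was 4.17%, below that of all named genes. Of 24 apoptosis regulators 1 passed, Traf1, which fell by 0.76 ± 0.11 (limma adjusted p = 0.017, 0.085 to 0.10 without 1 array).

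Cytosolic ribosomal protein genes had the most calls of the larger lists. Of 75 tested 14 rose and 12 fell (34.7%, beside 14.6% of all named genes), with a median of 0.09. The split turned on scaling: 15 were higher and 5 lower with the arrays scaled to the same spread, 17 and 5 after quantile normalisation, and 0 and 32 as deposited. Rpl3, at -0.06 and -0.18 in NOD and -1.26 and -1.27 in NOD.H2h4, fell by 1.15 ± 0.094 (limma adjusted p = 0.0012), and its 7 probes gave -1.41 to -0.52. Rpl4, at -0.17 and -0.20 in NOD and -1.09 and -1.14 in NOD.H2h4, fell by 0.93 ± 0.084 (limma adjusted p = 0.0014) over 6 probes. Rps29, at -0.11 and -0.38 in NOD and 0.60 and 0.63 in NOD.H2h4, rose by 0.86 ± 0.13 (limma adjusted p = 0.0064), and Rpl38, at -0.12 and -0.27 in NOD and 0.47 and 0.50 in NOD.H2h4, by 0.68 ± 0.097 (limma adjusted p = 0.0047). These 4 calls held without each array in turn. The other falls were Rps6, Rps9, Rpl5, Rps4x, Rplp0, Rpl7, Rpsa, Rpl10, Rpl7a and Rpl10a (-0.60 to -0.33), and the other rises Rpl22l1, Rps26, Rpl30, Rps15a, Rpl26, Rpl39l, Rpl37a, Rpl7l1, Rpl23, Rps27, Rps21 and Rpl39 (0.35 to 0.68). Ribosomal protein genes have many near-identical copies, so their probes can bind each other's RNA.

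Nuclear genes of oxidative phosphorylation had 4 higher and 8 lower of 62 (19.4%, beside 14.6% of all named genes). Their median was -0.13, and as deposited 0 were higher and 34 lower. Atp5a1, the alpha subunit of ATP synthase, was at 0.07 and 0.17 in NOD and -1.35 and -1.61 in NOD.H2h4 and fell by 1.60 ± 0.12, 3.03-fold (limma adjusted p = 0.00087). Sdhd of complex II was at -0.01 and 0.09 in NOD and -1.24 and -1.41 in NOD.H2h4 and fell by 1.36 ± 0.13 (limma adjusted p = 0.0016), and Cox7a2l, which joins complexes III and IV, fell by 1.14 ± 0.098 (limma adjusted p = 0.0013). Ndufa2 of complex I, at 0.09 and -0.07 in NOD and 1.46 and 1.58 in NOD.H2h4, rose by 1.51 ± 0.15 (limma adjusted p = 0.0041). All 4 calls held without each array in turn (adjusted p at most 0.034). The other falls were Ndufv1, Ndufv2, Cox7b, Uqcrc2 and Atp5g3 (-1.0 to -0.46), and the other rises Atp5j2, Cyc1 and Ndufa10 (0.52 to 0.77).

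Proteasome genes had 0 higher and 5 lower of 43 (11.6%, a share below the 14.6% of all named genes) and a median of -0.35. As deposited 0 were higher and 24 lower, and with the arrays scaled to the same spread 1 and 3. The list median was -0.02 and -0.09 on the NOD arrays and -0.38 and -0.44 on the NOD.H2h4 arrays. Psma2, a subunit of the outer ring, was at 0.18 and -0.10 in NOD and -0.99 and -1.22 in NOD.H2h4 and fell by 1.15 ± 0.16 (limma adjusted p = 0.0043, 0.016 to 0.034 without each array in turn). Psmb4 fell by 0.70 ± 0.13, Psmb7 by 0.70 ± 0.16 and the assembly chaperone Psmg2 by 0.69 ± 0.19, beside Psme1 (above). Of these Psmb4 passed only without NOD replicate 1 (0.049), and Psmb7 (0.072 to 0.12) and Psmg2 (0.058 to 0.22) in no fit without 1 array.

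**Figure D5:**
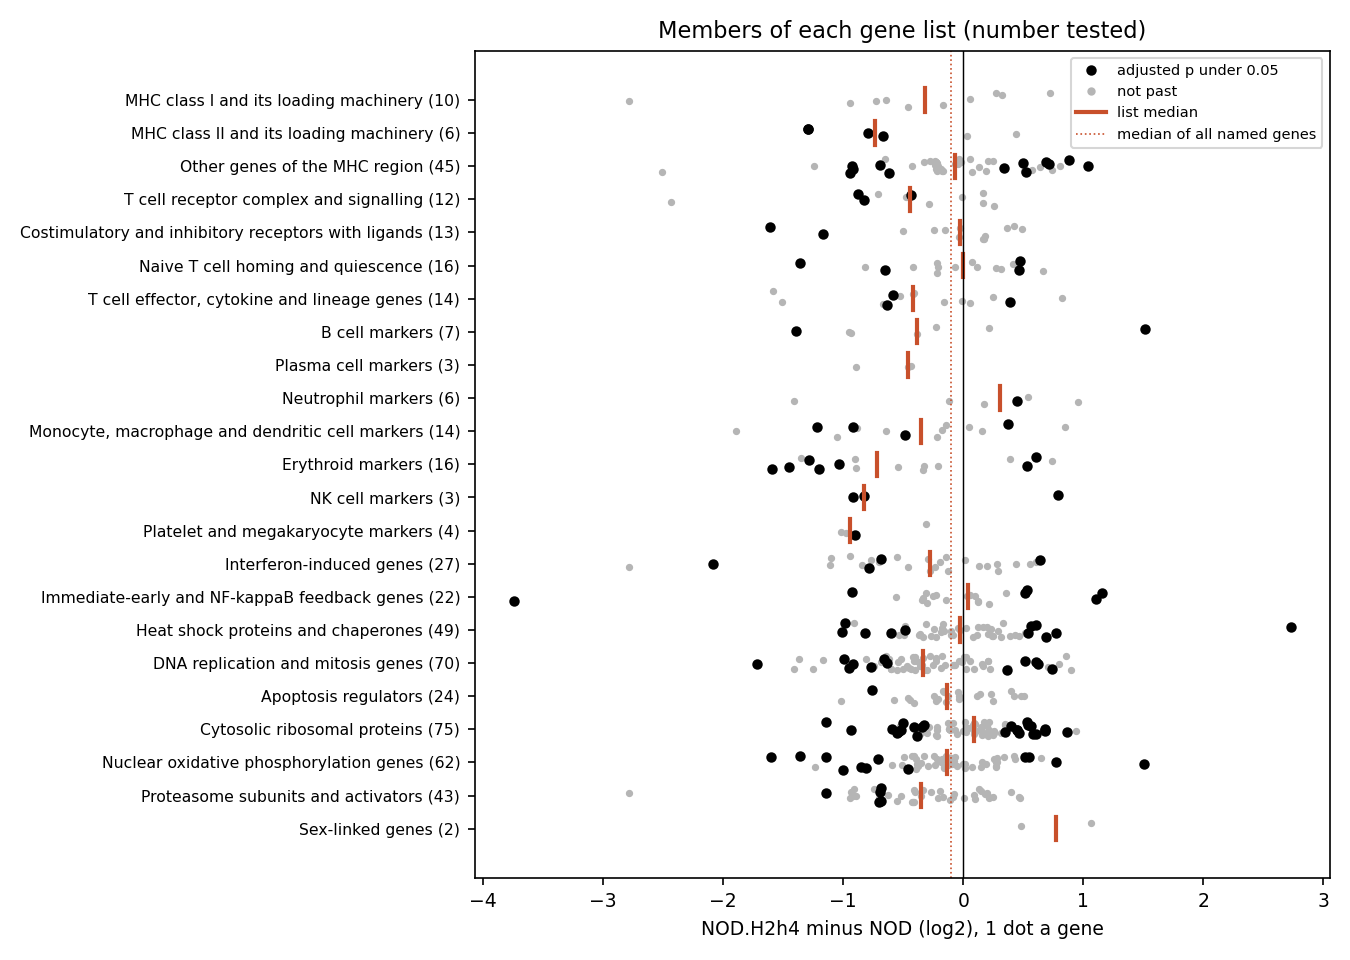
NOD.H2h4 minus NOD (horizontal, log2) of every tested member of each gene list, with called members in black, other members in grey and the list median as a red bar. MHC class II (-0.73), erythroid (-0.72), NK (-0.83) and platelet markers (-0.94) have the lowest medians, beside -0.10 over all named genes (dotted line), and Psmb9 is a member of 3 lists.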

How the data were processed

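Values were deposited as log2 ratios of Cy5 over Cy3, with the dyes as named per the labels. The scanner software, normalisation and filters of the authors were not given in the sources used here. Of 20736 probes, 13033 carry exactly 1 gene symbol in the platform annotation, and 12850 of these were matched to RefSeq. A fill value, equal to a ratio of 100000, stood in 146 cells and was taken as missing. Each array was centred on its median, and probes of a gene were averaged. Features with values on all 4 arrays of NOD and NOD.H2h4 were fitted with limma 3.58.1 in R 4.3.3, over 12 arrays in 6 groups that share the estimate of spread (6 residual and 1.42 prior degrees of freedom), and p-values were adjusted over all 15570 features by the Benjamini-Hochberg method with a threshold of 0.05. The code was tested on simulated data.

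Genes were named where they passed and the arrays of the strains did not overlap: the 15 largest differences and the 10 largest moderated t in each direction, the 4 largest differences of each list (2 where none passed), and every tested MHC class I and II gene. Icos, Cd28, Ctla4 (not tested), Brd2, Clic1, Agpat1 and Gbp2 were named in any case, and other list members past the threshold after their values were seen. The gene lists cover the MHC, T cell, interferon, immediate-early, heat shock, cell division, apoptosis, ribosomal, respiratory, proteasome and sex-linked genes and the markers of other blood cells. The members and lists were chosen with earlier results of these data known. Promoters are those of the RefSeq table for GRCm38.p6.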

Additional observations from a re-analysis of the deposited data

How the results depend on the processing

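The counts of 1965 features higher and 987 lower depended most on scaling and on single arrays. As deposited, 68 features were higher and 4347 lower, and with all arrays scaled to the same spread 929 were higher. With each probe tested alone 1494 were lower, with a fit of only the 4 arrays 2028 and with the 8 strain arrays 1781. Without 1 array the counts were 585 to 1232 higher and 389 to 477 lower. Other settings, among them quantile normalisation and a centring over probes with a gene symbol that was chosen after seeing the data, kept both counts within 1.5 times.

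Of 106 named genes past the threshold 100 kept their direction in all of the 19 alternatives that gave them a value, 42 stayed past in every one, and 51 in every fit without 1 array.

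The counts of named genes leave out list members named after their values were seen. Among the 123 genes counted, the direction turned as deposited for the called genes Ccr7 (-0.18), Klf2 (-0.19), Il4ra (-0.27), Csf3r (-0.21), Fcgr1 (-0.29) and Adar (-0.018). It also turned for Pdia3 (-0.61), Lgmn (-0.62), Tapbp (-0.38), Calr (-0.33), Ifi30 (-0.22) and Eif2s3y (-0.18), which were not called. With arrays scaled to the same spread it turned for Il4ra (-0.059), Csf3r (-0.024), Pdia3 (-0.11) and Lgmn (-0.13), and after quantile normalisation for Il4ra (-0.00084), Pdia3 (-0.099) and Lgmn (-0.12). Pdia3 (-0.16) and Lgmn (-0.14) also turned with a running median along the probe order, and they and Icos, none of them called, in 1 fit without 1 array each. The shift of the deposited medians gives the first group its sign, and the cause of the others was not tested. By the same shift, called genes outside the 123 also turned as deposited where their rise was smaller than the shift. Among them were Rgl2, Rnf5 and Dusp1.

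Replicate numbers did not pair the arrays: deviations of same-numbered arrays had r = -0.036 over 15570 features. With the replicate block 1753 features were higher and 890 lower, and the calls of 14 named genes ended. Signal over background was not analysed here, and 2 arrays per group limit the precision.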
